A study of Drosophila melanogaster with 12 samples.

Results

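The monoamine genes followed here are the 9 Drosophila genes ple, Ddc, DAT, Hn, Trhn, SerT, Tdc2, Tbh and Vmat, which make, store and take back dopamine, serotonin, tyramine and octopamine. They were chosen by name and not by a cut on their values, though with earlier results of these data known, out of 24228 counted features. The symbols of 8 stand in the deposited table as written, and the neuronal tryptophan hydroxylase Trhn was found by its identifier FBgn0035187, which the table lists as Trh. All 9 passed the filter on low counts.

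RNA was measured by sequencing of polyA-selected transcripts from whole heads of adult wild-type ORE-R flies, 200 heads to a library. Flies of both sexes first lived together for 3 to 5 days, and all groups share this mixed housing. They were then kept for 7 days either alone or with others of their own sex, 25 to a group. The 4 groups are group-housed females, isolated females, group-housed males and isolated males, with 3 libraries each. Replicate 0 of each group belongs to batch 1 and replicates 1 and 2 to batch 2, and the labels do not tell whether libraries stem from separate cultures. The p-values therefore rest on the spread between libraries, which may be technical. A whole-head library mixes all cell types, and a pool of heads hides differences between flies.

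Monoamine neurons are few in the fly head, and each transmitter has its own first enzyme. Tyrosine hydroxylase and then an aromatic amino acid decarboxylase make dopamine, tryptophan hydroxylase and the same decarboxylase make serotonin, and tyrosine decarboxylase and tyramine beta-hydroxylase make tyramine and octopamine. A vesicular transporter loads all of them, transporters in the plasma membrane take dopamine and serotonin back up, and the hydroxylases of aromatic amino acids need a pterin cofactor. In flies dopamine also hardens and colours the cuticle, and these amines act in arousal, feeding, courtship and aggression.

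Libraries held between 2584050 and 17122099 counted reads. Isolated female replicates 1 and 2, with 2584050 and 3224485 counts, were the shallowest and stood apart from the rest. Levels are given as CPM, reads of a gene scaled to a common library total. The leading principal component of log2 CPM held 29.1% of the variance, and on it these libraries lay at 60.1 and 46.1 and the other 10 libraries between -33.5 and 22.0. Of 8 neuron, 6 glial and 9 photoreceptor markers none was at 0 in any library, as the label of a head asks. Fat body markers, 7 genes summed without TMM scaling (the between-library scaling of edgeR), ran from 18520 to 25530 CPM in group-housed and from 41300 to 53350 CPM in isolated females. In males they ran from 7964 to 10460 and from 8461 to 10790 CPM. The list includes the yolk protein genes Yp1, Yp2 and Yp3, which were far higher in females than in males under both housings. Summed neuron markers overlapped between all groups, from 4266 CPM in group-housed female replicate 1 to 7157 CPM in group-housed male replicate 2.

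Per length, the phenylalanine hydroxylase gene Hn and the vesicular transporter gene Vmat stood highest and the tyramine-making enzyme gene Tdc2 lowest. Levels below are CPM on TMM-scaled library sizes, divided here by kilobases of exon in the BDGP6.54 annotation. Over the 12 libraries Hn had 146 ± 35.8 CPM per kilobase (SD), Vmat 92.9 ± 16.3 and Ddc 70.2 ± 11.2. ple followed with 42.6 ± 7.57, Tbh with 25.4 ± 5.35, DAT with 23.3 ± 2.64 and Trhn with 17.6 ± 1.73. SerT had 11.7 ± 2.20 CPM per kilobase and Tdc2 5.97 ± 1.49. Each gene exceeded the next in all 12 libraries at 5 of the 8 steps of this order. Vmat exceeded Ddc in 11 of 12 libraries and Ddc exceeded ple in 11. Tbh exceeded DAT in 8 of 12, which were all the libraries of batch 2, and was lower than DAT in every library of batch 1. The order of these neighbours thus followed the batch. The exon lengths join all annotated exons of a gene, and transcripts in use may be shorter.

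**Figure D1:**
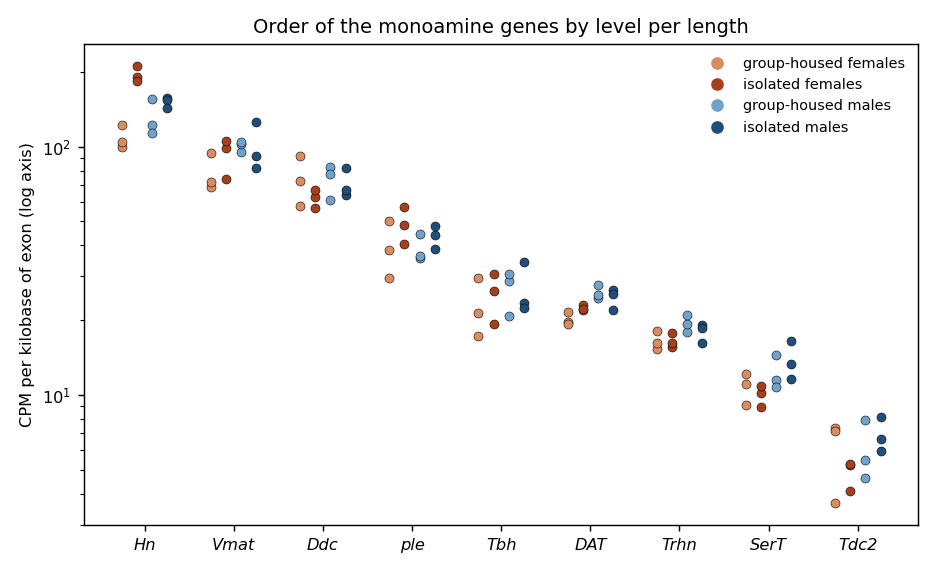
CPM per kilobase of exon (log axis) of the 9 genes, ordered by their mean, with 1 point per library and 1 colour per group. The levels run from a mean of 146 for Hn to 5.97 for Tdc2, and the points of Tbh and DAT lie in the same range.

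The raw counts behind these levels set their precision. Vmat had 1792 to 11960 reads per library and Hn 895 to 5268. Tdc2 had 21 to 331 reads and SerT 74 to 879, so counting error weighs most on these. The genes are spread over the genome in BDGP6.54: DAT, Vmat, SerT and Tdc2 lie on chromosome arm 2R, ple, Trhn and Hn on 3L, Ddc on 2L and Tbh on the X. Hn (FBgn0001208) runs from 7760453 to 7763166 on the plus strand of 3L. No source used here gives the strand setting of the counting, so reads of genes that overlap on opposite strands cannot be told apart. This touches Vmat, which shares 2129 exonic bases with CG13330 (0 to 72 reads per library), Ddc, which shares 88 with CG10561 (107 to 1184 reads), and Trhn, which shares 89 with CG13912 (122 to 500 reads).

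In isolated females 1 of the 9 genes rose, Hn, and no other member passed the test. Hn encodes phenylalanine hydroxylase, which makes tyrosine, the starting point of dopamine, tyramine and octopamine, and which can also hydroxylate tryptophan. Its levels were 210.0, 221 and 259 CPM in group-housed females and 447, 402 and 390.3 CPM in isolated females (replicates 0, 1 and 2). Every isolated female library lay above every group-housed one. The means were 230.0 ± 25.4 and 413 ± 30.0 CPM (SD, n = 3), a difference of 0.85 log2 units (SE 0.15, adjusted p = 0.00320 in edgeR), or 1.80-fold with a 95% interval of 1.44 to 2.25. Over all 10238 features tested, 3.48% were called in this comparison, 3.26% higher and 0.215% lower. Hn was thus 1 called member of 9, and it ranked 122 of 10238 by p.

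The rise of Hn was present in both batches and depended on the scaling in size. The log2 ratio of its mean CPM was 1.09 in batch 1, with 1 library per group, and 0.72 in batch 2. When replicate 0 was the single isolated female library kept, with its spread taken from the other groups, the log2 fold change was 1.00 (adjusted p = 0.0934 in edgeR), and with batch 2 alone it was 0.72 (adjusted p = 0.215). Scaled to summed neuron markers it was 0.59 (adjusted p = 0.510), where the median of all features moved to -0.29, and with library totals alone 0.65 (adjusted p = 0.0181), with the median at -0.23. The summed fat body markers were higher in the same libraries as Hn, in all 9 pairs of an isolated and a group-housed female library. Of the 7 fat body genes 5 rose and none fell, and of 5 hemocyte markers 1 rose, while none of 8 neuron, 6 glial or 9 photoreceptor markers passed in edgeR. Their part in the result was not tested. In whole heads, more cells of a type and more RNA per cell cannot be told apart.

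In males Hn had 257, 329 and 239.8 CPM in groups and 331, 327 and 304 CPM alone. The groups overlapped through group-housed male replicate 1. The difference was 0.22 log2 units (SE 0.15, adjusted p = 1.00 in edgeR), 1.17-fold with a 95% interval of 0.936 to 1.45. The female response exceeded the male one by 0.63 log2 units (SE 0.21, 95% interval 0.18 to 1.08). This difference did not pass (adjusted p = 0.375 in edgeR, unadjusted p = 0.00912). Averaged over the sexes, Hn was higher under isolation by 0.54 (SE 0.11, adjusted p = 0.0110 in edgeR), in a comparison where 2.2% of features were called. That call was lost without group-housed female replicate 0 (adjusted p = 0.0501), isolated female replicate 0 (0.0542) or group-housed male replicate 0 (0.0618), and an average can rest on 1 sex.

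**Figure D2:**
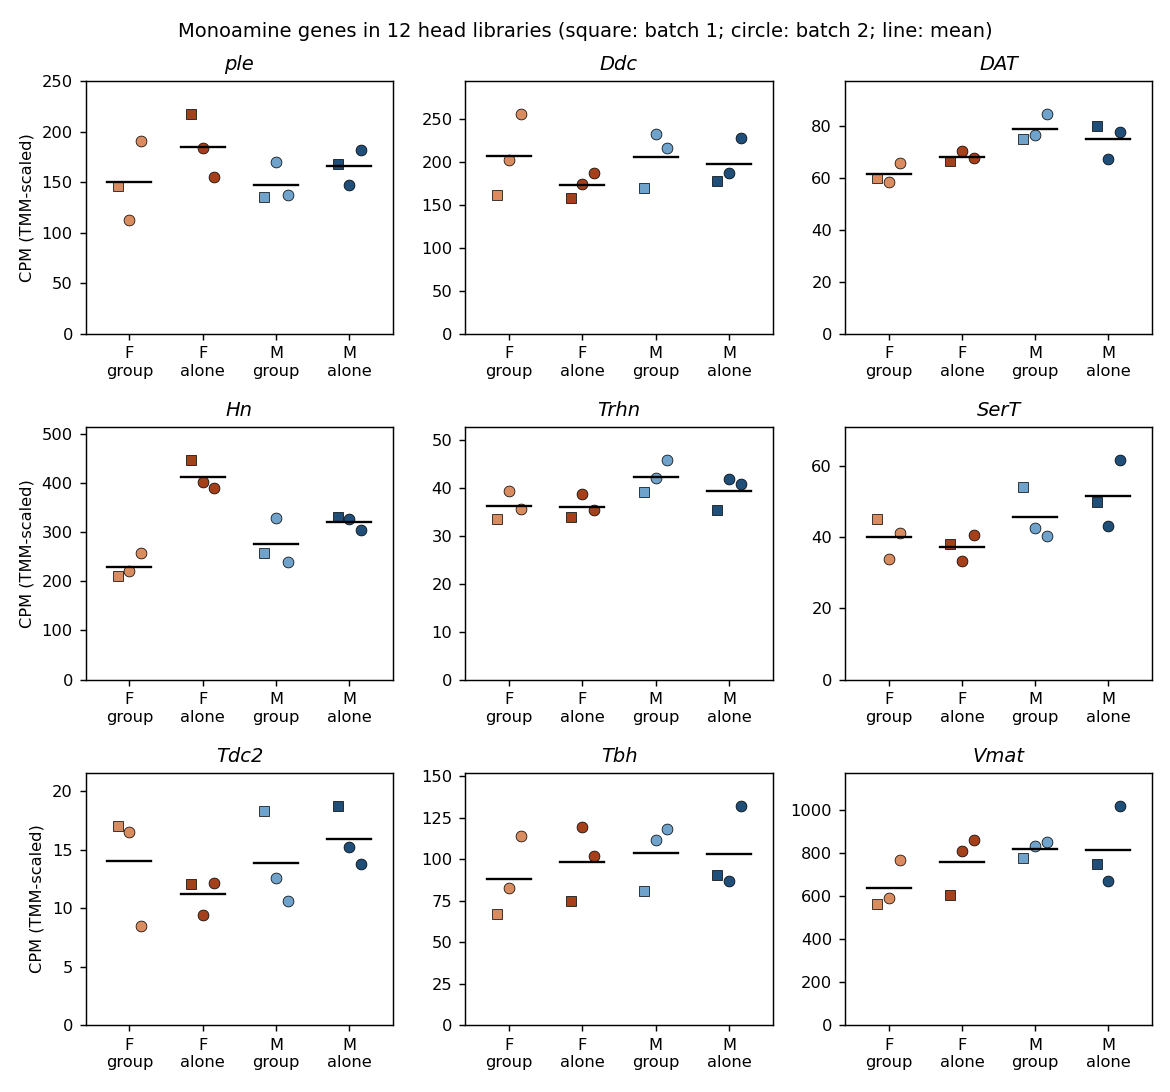
CPM of each of the 9 genes on TMM-scaled library sizes, by sex (F, M) and housing, with 1 point per library (square for batch 1, circle for batch 2) and a line at the mean of 3. For Hn the isolated females (390.3 to 447 CPM) lie above all group-housed females (210.0 to 259 CPM). The female groups of DAT do not overlap either. For all other genes group-housed and isolated flies of the same sex overlap.

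Hn also moved against the other members within single libraries, a measure that needs no scaling between libraries. The reads of Hn per read of ple were 1.44, 1.96 and 1.35 in group-housed females and 2.06, 2.19 and 2.52 in isolated females. In males this ratio was 1.90, 1.94 and 1.74 in groups and 1.97, 2.22 and 1.67 alone. The ratios did not overlap between the 2 groups of females and overlapped in males. Hn took 14.9% to 16.3% of the reads of all 9 genes in group-housed females and 21.1% to 27.1% in isolated females. It took 13.8% to 17.8% in group-housed males and 14.8% to 20.6% in isolated males. These ratios were chosen after the values of Hn were seen and are given without a test.

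The dopamine genes did not pass in either sex. ple encodes tyrosine hydroxylase, the rate-limiting enzyme of dopamine synthesis. It had 146, 113 and 191 CPM in group-housed females and 218, 183 and 155 CPM in isolated females. The groups overlapped, with isolated female replicates 1 and 2 below group-housed female replicate 2. The difference was 0.31 log2 units (SE 0.18, 95% interval -0.08 to 0.70, adjusted p = 0.489 in edgeR). In males ple had 135, 170 and 138 CPM in groups and 168, 147 and 182 CPM alone, a difference of 0.17 log2 units (SE 0.18, adjusted p = 1.00 in edgeR). An increase of ple of up to 1.62-fold in females and 1.47-fold in males lies inside the 95% intervals.

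Ddc encodes the decarboxylase shared by dopamine and serotonin synthesis. Its means were 207 ± 47.3 CPM (group-housed) and 173 ± 14.8 CPM (isolated) in females, and 206 ± 32.4 and 198 ± 26.8 CPM in group-housed and isolated males (SD, n = 3). The libraries of all 4 groups overlapped. The log2 fold change was -0.24 in females (SE 0.14, adjusted p = 0.475 in edgeR) and -0.05 in males (SE 0.14, adjusted p = 1.00 in edgeR).

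DAT encodes the plasma membrane transporter that clears dopamine. It had 59.9, 58.5 and 65.8 CPM in group-housed females and 66.6, 70.1 and 67.7 CPM in isolated females. The isolated libraries all lay above the group-housed ones, by a small margin. The difference was 0.15 log2 units (SE 0.13, 95% interval -0.12 to 0.42, adjusted p = 0.665 in edgeR). Its sign depended on the scaling. With library totals alone it was -0.05, where the median of all features was -0.23, and with neuron marker scaling -0.11, where that median was -0.29. DAT and Hn were the 2 members whose female groups did not overlap, where 16.3% of all tested features did not overlap. In males DAT had 74.8, 76.6 and 84.5 CPM in groups and 80.1, 67.1 and 77.6 CPM alone, and these overlapped (log2 fold change -0.07, SE 0.12).

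The serotonin genes gave no call for housing. Trhn encodes neuronal tryptophan hydroxylase, which commits tryptophan to serotonin. Its means in group-housed and isolated females were 36.1 ± 3.0 and 36.0 ± 2.41 CPM (SD, n = 3). Its log2 fold change in females was -0.00 (SE 0.14), with a 95% interval of 0.814-fold to 1.22-fold. In males the means were 42.3 ± 3.38 in groups and 39.3 ± 3.41 CPM alone, a difference of -0.11 log2 units (SE 0.13). SerT encodes the transporter that clears serotonin. It had 45.2, 33.8 and 41.2 CPM in group-housed females and 38.1, 33.3 and 40.6 CPM in isolated females, a difference of -0.10 log2 units (SE 0.17). In males it had 54.2, 42.7 and 40.2 CPM in groups and 49.9, 43.1 and 61.7 CPM alone, a difference of 0.17 log2 units (SE 0.17). The housing groups of SerT overlapped in both sexes.

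The tyramine and octopamine genes did not pass either, with the widest intervals for Tdc2. Tdc2 encodes the neuronal tyrosine decarboxylase that makes tyramine. It had 17, 16.6 and 8.45 CPM in group-housed females and 12.1, 9.44 and 12.1 CPM in isolated females. Group-housed female replicate 2 was below all isolated females and the other two above. The difference was -0.33 log2 units (SE 0.27), with a 95% interval of 0.538-fold to 1.17-fold. In males Tdc2 had 18.3, 12.6 and 10.6 CPM in groups and 18.8, 15.3 and 13.8 CPM alone, a difference of 0.22 log2 units (SE 0.25). Tbh encodes the enzyme that turns tyramine into octopamine. Its means were 87.9 ± 24.0 and 98.5 ± 22.3 CPM in group-housed and isolated females (SD, n = 3; log2 fold change 0.16, SE 0.17). In males they were 104 ± 20.1 and 103 ± 25.2 CPM (SD, n = 3; log2 fold change 0.01, SE 0.16).

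Vmat, which loads all of these amines into vesicles, had 561, 588 and 767 CPM in group-housed females and 603, 806 and 859.7 CPM in isolated females. The groups overlapped. Its log2 fold change was 0.24 in females (SE 0.18, 95% interval -0.14 to 0.61, adjusted p = 0.608 in edgeR) and -0.02 in males (SE 0.18, adjusted p = 1.00 in edgeR). In males it had 776, 830.0 and 848 CPM in groups and 747, 669 and 1018 CPM alone, so that the isolated libraries spanned the group-housed ones.

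Taken over the 9 genes, the median log2 fold change under isolation was 0.15 in females, beside -0.02 over all features, with 5 members above 0 and 4 below. With library totals alone 3 stood above 0 and 6 below, where the median of the members was -0.05 and that of all features -0.23. With neuron marker scaling 2 stood above 0 and 7 below, with medians of -0.11 and -0.29. These scalings shift all features alike, and the median of the members lay above that of all features under each. In males the median was 0.01, beside -0.00 over all features. None of the 9 passed in males in edgeR, DESeq2 or limma-voom. Of all 10238 features edgeR called 8 (0.0781%), DESeq2 26 and limma-voom 11 in males. An unadjusted p under 0.05 was found for 0 of the 9 and for 2.66% of all features. None of the 9 was without overlap between the male groups, where 5.81% of all features were. The difference between the sexes in their housing response gave no call among the 9 in any of the 3 tools. Of all 10238 features edgeR called 45 (0.44%), DESeq2 141 and limma-voom 71 for this difference. An unadjusted p under 0.05 was found for 1 of the 9 (Hn) and for 7.1% of all features.

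**Figure D3:**
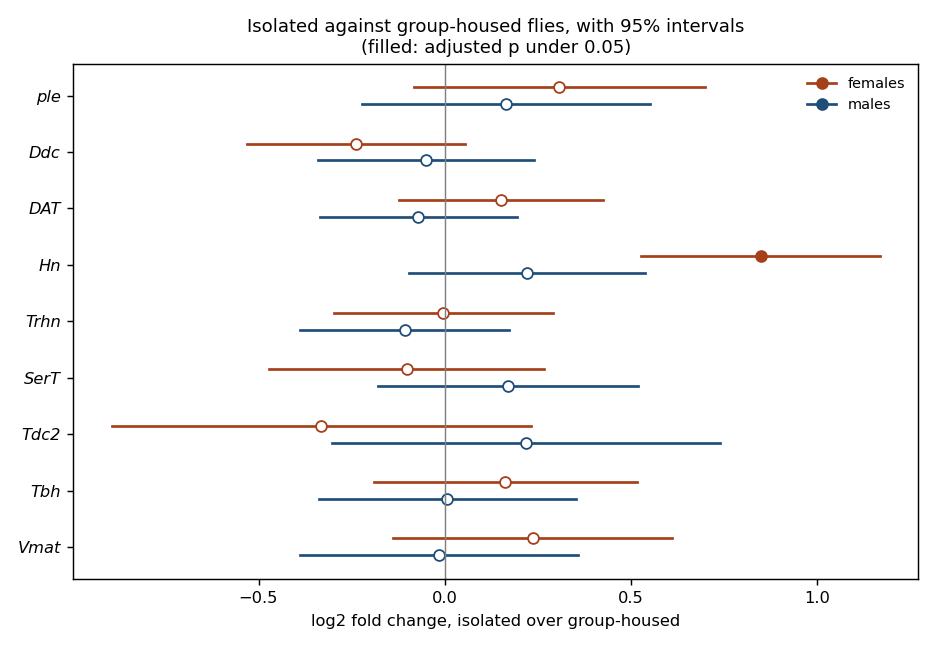
Log2 fold change of isolated over group-housed flies for the 9 genes in females and males, with 95% intervals and filled points where the edgeR adjusted p was under 0.05. The female value of Hn, 0.85, is the filled one, and the intervals of the other 8 genes include 0 in both sexes.

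Females and males were compared under each housing. No member passed in edgeR, DESeq2 or limma-voom under either housing. Among group-housed flies 2.73% of all features were called in edgeR, with 442 features called in DESeq2 and 432 in limma-voom. An unadjusted p under 0.05 was found for 1 member of 9, DAT, and for 12.5% of all features, so this count is near the background. DAT was lower in all 3 group-housed female libraries than in any male one, with a difference of -0.36 log2 units (SE 0.13, unadjusted p = 0.0114 and adjusted p = 0.194 in edgeR). Vmat had the same gap, with females at 561 to 767 and males at 776 to 848 CPM (log2 fold change -0.36, SE 0.18, adjusted p = 0.420 in edgeR). These were 2 members of 9 without overlap, where 13.9% of all features had none. Of the 9 values 7 were negative, with a median of -0.23 beside -0.01 over all features. With neuron marker scaling, which shifts all features alike, 4 were negative, with a median of 0.03 beside 0.24 over all features.

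Among isolated flies 4.24% of all features were called in edgeR, with 693 features called in DESeq2 and 531 in limma-voom. An unadjusted p under 0.05 was found for 2 members of 9, SerT and Hn, and for 16.6% of all features, so this count too is near the background. SerT was lower in isolated females (33.3 to 40.6 CPM) than in isolated males (43.1 to 61.7 CPM), with a difference of -0.46 log2 units (SE 0.17, unadjusted p = 0.0170 and adjusted p = 0.177 in edgeR). Hn was at 390.3 to 447 CPM in isolated females and 304 to 331 CPM in isolated males, a difference of 0.37 (SE 0.15, unadjusted p = 0.0260 and adjusted p = 0.217 in edgeR). Tdc2 did not overlap either, at 9.44 to 12.1 CPM in females and 13.8 to 18.8 CPM in males (log2 fold change -0.51, SE 0.26, adjusted p = 0.353 in edgeR). In edgeR all 7 fat body, 3 of 5 hemocyte and 1 of 5 muscle markers were higher in isolated females than in isolated males. Of 6 glial markers 1 was lower. The fat body list includes yolk protein genes, of which Yp1 had a mean of 14342 CPM in isolated females and 339 CPM in isolated males. For apolpp, another gene of that list, these means were 14889 and 6483 CPM. The part of the markers in the values of the members was not tested. SerT, Hn and Tdc2 were the 3 members of 9 without overlap, where 22% of all features had none. Tbh, the X-linked member, stood at -0.24 (SE 0.16) under group housing and -0.09 (SE 0.17) under isolation.

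**Figure D4:**
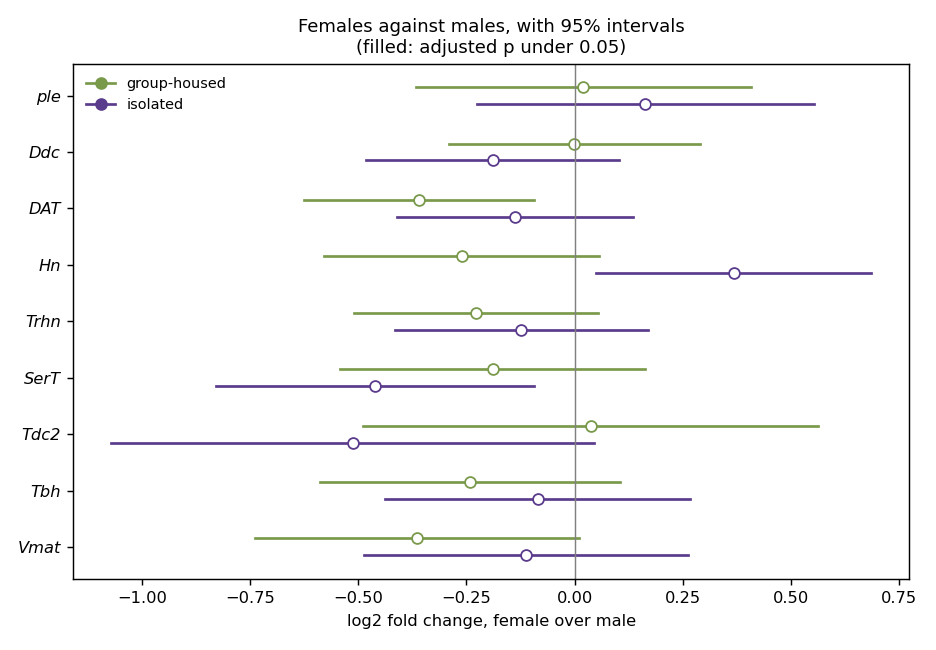
Log2 fold change of females over males for the 9 genes under group housing and isolation, with 95% intervals. No point is filled, since no edgeR adjusted p was under 0.05, and the intervals that leave out 0 are those of DAT under group housing and of SerT and Hn under isolation.

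The genes that break down tyrosine and tryptophan included further changes in isolated females. Of 9 listed and tested, 2 rose in edgeR, and 3 rose in each of DESeq2 and limma-voom. None fell in these tools, and the median log2 fold change was 0.49. Over all features 3.26% were called higher in edgeR. Hpd encodes hydroxyphenylpyruvate dioxygenase, an early step of tyrosine breakdown. It had 99.2, 99.2 and 117 CPM in females kept in groups and 166, 169 and 159 CPM in those kept alone, a difference of 0.66 log2 units (SE 0.15, adjusted p = 0.0163 in edgeR). Faa encodes fumarylacetoacetase, the last step. Its levels were 43.0, 44.0 and 33.2 CPM in groups and 68.8, 66.1 and 55.5 CPM alone, a difference of 0.66 log2 units (SE 0.14, adjusted p = 0.0141 in edgeR). Both genes were higher in all 9 pairs of female libraries, in a comparison where 16.3% of all features did not overlap.

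Between these steps hgo, which encodes homogentisate dioxygenase, stood at 0.49 (SE 0.18, adjusted p = 0.201 in edgeR). Tat, the tyrosine aminotransferase gene, stood at 0.49 (SE 0.30, adjusted p = 0.512 in edgeR), with female log2 ratios of 1.06 in batch 1 and 0.19 in batch 2. Of its 2509 exonic bases Tat shares 1974 with CG46317 on the same strand and 643 with CG13404 on the other. Reads there cannot be assigned to Tat alone. The tryptophan dioxygenase gene v stood at 0.63 in females (SE 0.18, adjusted p = 0.0785 in edgeR). In males none of the 9 passed in edgeR, DESeq2 or limma-voom and 1, the glutathione transferase gene GstZ2 (0.36, SE 0.16), had an unadjusted p under 0.05, with a median of 0.14. The male values were 0.27 (SE 0.14) for Hpd and 0.25 (SE 0.14) for Faa. Faa and GstZ2 were higher in all 9 pairs of male libraries and Hpd in 7 of 9, where 5.81% of all features did not overlap. Averaged over the sexes, edgeR called 2 of the 9 higher under isolation, Hpd and Faa, beside 2.2% of all features called. These calls were lost in 6 and 7 of the 12 fits that each left out 1 library. The housing response did not pass as different between the sexes for Hpd (adjusted p = 0.759 in edgeR) or Faa (0.707).

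The calls of Hpd and Faa were less firm than that of Hn. With library totals alone the log2 fold changes in females were 0.45 (adjusted p = 0.132 in edgeR) and 0.44 (0.202). With neuron marker scaling they were 0.40 (0.548) and 0.35 (0.608), and with batch 2 alone 0.60 (0.291) and 0.64 (0.292). Hpd lost its call without group-housed female replicate 0 (adjusted p = 0.0713) or 1 (0.0691), or isolated female replicate 0 (0.146) or 1 (0.0640). Faa lost its call without group-housed female replicate 0 (adjusted p = 0.0823), or isolated female replicate 0 (0.105) or 1 (0.0753). Within batches the log2 ratios were 0.75 and 0.60 for Hpd and 0.68 and 0.66 for Faa. Hpd shares 273 exonic bases with lncRNA:CR45176 and 141 with CtIP on the other strand, so its reads may be mixed with theirs. The summed fat body markers were higher in these isolated female libraries too, and their part in these values was not tested.

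Under the sex comparison Faa was lower in group-housed females than in group-housed males. The difference was -0.65 log2 units (SE 0.14, adjusted p = 0.0146 in edgeR). It was 1 of 9 in that list called in edgeR, beside 2.73% of all features, and DESeq2 and limma-voom each called 2 of the 9 lower. The edgeR call of Faa was lost with library totals alone (adjusted p = 0.102), without group-housed female replicate 0 (0.0683) and without group-housed male replicate 1 (0.0573) or 2 (0.0802). In the same comparison 4 of 7 fat body and 1 of 5 muscle markers were higher and 1 of 6 glial markers lower in females in edgeR. Of the fat body list, the yolk protein gene Yp1 had a mean of 6477 CPM in group-housed females and 392 CPM in group-housed males. For apolpp these means were 8137 and 7054 CPM. The part of the markers in the value of Faa was not tested. Among isolated flies v was higher in females by 0.69 (SE 0.18, adjusted p = 0.0404 in edgeR). It was 1 of 9 in the list called there, beside 4.24% of all features. The marker differences between isolated females and males given above stand beside this call. v was no longer called in 7 of 12 fits that each left out 1 library, with edgeR adjusted p up to 0.242 without isolated female replicate 0.

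The pterin cofactor list gave no call. None of its 6 genes passed in females in edgeR, DESeq2 or limma-voom, and 1 had an unadjusted p under 0.05, where 14.3% of all features had one. That gene was Pu, which encodes GTP cyclohydrolase, the first enzyme of pterin synthesis. It stood at 0.43 in females (SE 0.16, adjusted p = 0.224 in edgeR) and 0.14 in males (SE 0.16). Dhpr, the gene of dihydropteridine reductase, which regenerates the cofactor, stood at 0.27 in females (SE 0.14, adjusted p = 0.392 in edgeR). The median of the list was 0.15 in females and 0.09 in males, where none passed in the 3 tools and 0 had an unadjusted p under 0.05.

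Among 11 related enzymes and transporters 1 rose in isolated females and none fell in edgeR, where 3.26% of all features were called higher and 0.215% lower. The median of the list was -0.15, beside -0.02 over all features. The gene called was bw, which encodes an ABC transporter for the pteridine eye pigment precursors. bw had 39.1, 31.1 and 28.9 CPM in females kept in groups and 63.4, 50.8 and 38.5 CPM in those kept alone, a difference of 0.62 log2 units (SE 0.15, adjusted p = 0.0334 in edgeR). The groups overlapped, since isolated female replicate 2 was below group-housed female replicate 0. It was no longer called in 7 of 12 fits that each left out 1 library, with adjusted p up to 0.206 without isolated female replicate 0, and with library totals alone (0.240), neuron marker scaling (0.616) or batch 2 alone (0.441). bw shares 456 exonic bases with mi on the other strand. st, which encodes the transporter of the brown pigment precursors, stood at -0.72 (SE 0.30, adjusted p = 0.278 in edgeR), and w, the partner of both, at -0.09 (SE 0.30). The batches differed for these genes. The female log2 ratios in batches 1 and 2 were -0.15 and -1.46 for st and 0.53 and -0.59 for w. st had as few as 7 reads in an isolated female library. In males none of the 11 passed in the 3 tools and 0 had an unadjusted p under 0.05.

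**Figure D5:**
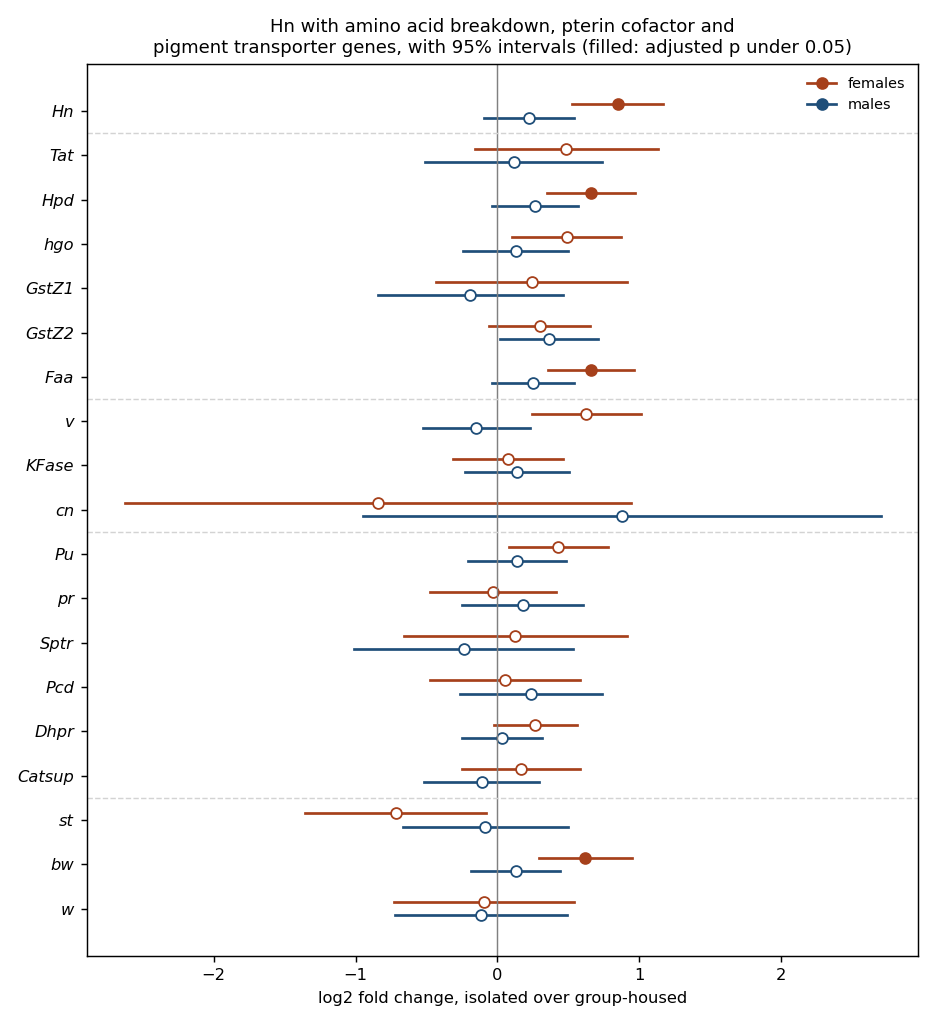
Log2 fold change of isolated over group-housed flies, in females and males, for Hn, tyrosine breakdown (Tat to Faa), tryptophan breakdown (v to cn), pterin cofactor (Pu to Catsup) and pigment transporter genes (st, bw, w), with 95% intervals and filled points where the edgeR adjusted p was under 0.05. The filled points are the female values of Hn (0.85), Hpd (0.66), Faa (0.66) and bw (0.62).

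Genes that conjugate or recycle amines and genes of cuticle pigment gave no call for housing in edgeR. Of 11 conjugation genes 7 were tested, among them e, which joins beta-alanine to dopamine and histamine, t, which undoes that, and speck, an arylalkylamine acetyltransferase gene. They stood at -0.06 (SE 0.30), -0.05 (SE 0.21) and 0.18 (SE 0.18) in females. None passed in the 3 tools in females, where 0 had an unadjusted p under 0.05, or in males, where 1 had, AANATL2 (1.31, SE 0.52). In males 2.66% of all features had such a p. The log2 ratio of AANATL2 in males was 0.06 in batch 1 and 1.96 in batch 2, with as few as 10 reads in a group-housed male library. Of 8 cuticle and melanin genes 7 were tested, none passed in edgeR and 1 passed in DESeq2 and limma-voom in females, where 1 of the 7, beside 14.3% of all features, had an unadjusted p under 0.05. That gene, yellow-f2, stood at 0.54 (SE 0.15, adjusted p = 0.0572 in edgeR). In males none of the 7 passed in the 3 tools and 0 had an unadjusted p under 0.05. yellow-e was lower in group-housed females than in group-housed males by -1.04 (SE 0.21, adjusted p = 0.0118 in edgeR), a call lost without group-housed female replicate 0 (0.0672) and without group-housed male replicate 0 (0.0571) or 2 (0.0589). The fat body, muscle and glial markers that differed between group-housed females and males, given above for Faa, stand beside this call too, and their part was not tested.

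The 9 genes varied together in part across the libraries. Correlations of log2 CPM centred within batch over the 12 libraries, which share their depth, scaling and makeup of cells, ran from -0.71 (ple with Tdc2) to 0.88 (Vmat with Tbh) over 36 pairs, with a median of 0.26. DAT, Vmat and Tbh formed the closest trio, at 0.82 for DAT with Vmat and 0.80 for DAT with Tbh. Hn was closest to ple among the members (0.69) and lay below 0 with Ddc (-0.40), Tdc2 (-0.35), Trhn (-0.25) and SerT (-0.17). These values describe 12 libraries of 4 groups and carry no test.

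Among 9052 other genes whose log2 CPM averaged 1 or more, those with the highest correlation over the 12 libraries were CG5390 for Hn (0.97) and CG10555 for Tbh (0.97). They were rut, an adenylyl cyclase gene, for Vmat (0.95), Sfxn2 for DAT (0.94) and Scm for Ddc (0.94). Those closest to the others were alphaTub84D for Tdc2 (0.93), Ald1 for ple (0.93), Rfx for SerT (0.92) and Fer2 for Trhn (0.92). The mean of the 9 standardised genes was closest to Bili (0.98), CG32206 (0.97), Gad1 (0.96), CG10089 (0.96) and CG1909 (0.95). A highest value among so many genes is large by selection, and these are descriptions of the 12 libraries.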

How the data were processed

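The authors deposited raw counts of reads for each feature in 12 libraries as whole numbers, per the file headers. Tools listed by the submitters' processing notes, with no roles, were edgeR 4.4.1, R 4.4.0, HTSeq 2.0.5, Picard 2.27.5 and STAR 2.7.10b. No source used here gives the genome build, annotation release or strand setting. The column of isolated male replicate 1 is marked as merged and was used as 1 replicate. Lines that name no gene held 10.2% to 13.2% of each column and were left out.

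The tests used edgeR 4.0.16 (R 4.3.3): filterByExpr (minimum count 10, minimum total 15; 10238 features kept), TMM scaling, and a single quasi-likelihood fit of 4 group means plus batch over all 12 libraries (7 residual degrees of freedom, robust estimation). Contrasts were tested with glmQLFTest and adjusted over all features by Benjamini-Hochberg at 0.05. The SE is the log2 fold change divided by the square root of F, and 95% intervals use the t quantile of the same fit. Alternatives were other scalings, filters and batch terms, DESeq2 1.42.0, limma-voom (limma 3.58.1), subsets of libraries and leaving out each library. The scripts were tested on simulated data. Positions and exon lengths come from BDGP6.54, matched by gene identifier.

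The members and lists were chosen with earlier results of these data known. Named are all members, each list's genes past the threshold or with the smallest p (up to 2), and for likeness the genes with the highest correlation. e, t, speck, Tat, v, st and w were named to show a list's spread, after their values were seen. Listed genes are described by counts and medians, without a set test.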

Additional observations from a re-analysis of the deposited data

How the results depend on the processing

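Hn kept its direction in all 6 comparisons under every alternative run. Its female call held with library totals, RLE size factors, no filter, a stricter filter, DESeq2, limma-voom, no batch term, the replicate block, the female libraries alone, and each of 12 fits with 1 library left out (log2 fold change 0.76 to 0.94, highest adjusted p 0.0446 in edgeR, when group-housed female replicate 0 was absent). The number of members called was 0 in place of 1, in females and averaged over the sexes, with neuron marker scaling, with batch 2 alone and with isolated females by replicate 0 alone. The cause was not tested. With 1 library left out, the number was 1 in every fit in females and 0 to 1 averaged over the sexes. The other 4 comparisons had 0 members called under every alternative.

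Of 1278 member values under an alternative 84 changed sign, none of them of Hn; their main log2 fold changes were at most 0.25 in size. With the replicate number as a block, the female log2 fold change of Hn was 0.85 (edgeR adjusted p = 0.00243), 1 member was called in females and 395 features in all; it changed no other member's call, and moved the count of features whose response differed between the sexes from 45 to 69. Same-numbered libraries of different groups correlated in their deviations from the group means by 0.229 to 0.505 for replicate 0 (batch 1). For replicates 1 and 2 the range was -0.184 to 0.396. Of 12 libraries 9 correlated best with their own number, a hint from the data and not the design. Among these 9, 4 were replicate 0, which share a batch. Whether replicates 1 and 2 are paired across groups cannot be told from these values. Over all features, the female count of 356 ran from 33 (neuron marker scaling) to 535 (DESeq2), the male count of 8 from 0 (batch 2 alone) to 254 (no filter), and the difference between the sexes in response, 45, from 7 to 168. The counts by sex ran from 112 to 1019 (main 279) under group housing and from 62 to 732 (main 434) under isolation, and the averaged count of 225 from 32 to 428. Depth limits Tdc2 most, with 21 reads in isolated female replicate 1.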
